A study of Rattus norvegicus with 15 samples.

Results

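The genes described here are 8 immune genes of the rat spinal cord, chosen by Ensembl identifier and all found among the 34202 rows of the 15 count tables. They are Aif1 (ENSRNOG00000000853), Itgam (ENSRNOG00000019728), C1qa (ENSRNOG00000012807), C1qb (ENSRNOG00000012804), C3 (ENSRNOG00000046834), Cd74 (ENSRNOG00000018735), RT1-Da (ENSRNOG00000032844) and RT1-Ba (ENSRNOG00000000451). Aif1 and Itgam mark microglia, C1qa, C1qb and C3 encode complement proteins, and Cd74, RT1-Da and RT1-Ba belong to antigen presentation by MHC class II. RNA came from the L4-L6 spinal cord, on the injured side, of adult male Sprague-Dawley rats of 180 to 200 g. In sham rats the left sciatic nerve was exposed and not ligated, and in all other rats 4 loose ligatures, about 1 mm apart, were tied around it (chronic constriction injury, CCI). Ligated rats stayed untreated (CCI) or were treated for 5 days from postoperative day 6, and tissue was taken on day 10. Treated rats received YZP (Yuan-Hu Zhi Tong Prescription) at 10.8 g crude drug per kg, or its component YH (7.2 g) or BZ (3.6 g). Each ligated group held 7 rats, and 3 libraries were sequenced in each of the 5 groups.

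Microglia are the resident macrophages of the spinal cord, and peripheral nerve injury is known to make those near the injured sensory endings and motor neurons multiply and change shape. C1q is the recognition molecule of the classical complement pathway and is made in the central nervous system mainly by microglia, while C3 is the protein on which the complement pathways meet. MHC class II molecules present peptides to CD4+ T cells. Their chains are encoded in the rat by RT1 genes, and Cd74 encodes the invariant chain that holds the empty peptide groove on the way to the endosome.

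Libraries held 15093246 to 22757104 counts, and the 8 genes together took 0.0181% to 0.144% of them. Of the 8 genes, 7 passed the filter on low counts that left 16522 genes, and RT1-Ba did not. The 3 most abundant genes of the series took 8.49% to 9.60% of the counts in sham, 6.78% to 7.55% in CCI and 6.76% to 9.18% in the treated groups. No table used here pairs the other identifiers with symbols, so the tissue label could not be checked against neuronal or glial markers. Levels are normalised read counts in CPM, a gene's count relative to its library's total after scaling by the trimmed mean of M-values (TMM), and a gene was called at an adjusted p under 0.05. In bulk RNA, more cells of a type and more RNA per cell cannot be told apart.

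The mean level of microglial and complement genes was 2.497 to 5.06 times as high in CCI as in sham, and that of Cd74 and RT1-Da was 1.14 and 1.01 times as high. Single CCI libraries stood between 1.85 times the sham mean (Aif1, replicate 2) and 7.59 times (C1qb, replicate 3) in the first 5 genes. Aif1, which encodes the calcium-binding protein Iba1 used to stain microglia and macrophages, stood at 13.2, 12.5 and 17.6 CPM in the sham libraries and at 32.8, 26.7 and 48.8 CPM in CCI. Itgam, which encodes the CD11b chain of complement receptor 3 and is shared by microglia, monocytes and neutrophils, stood at 13.2, 15.2 and 17.2 CPM in sham and at 39.4, 29.8 and 50.9 CPM in CCI. For both genes the lowest CCI library lay above the highest sham library. The log2 fold change was 1.32 for Aif1 (95% interval 0.49 to 2.15, edgeR adjusted p = 0.14) and 1.40 for Itgam (0.56 to 2.23, adjusted p = 0.129).

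**Figure D1:**
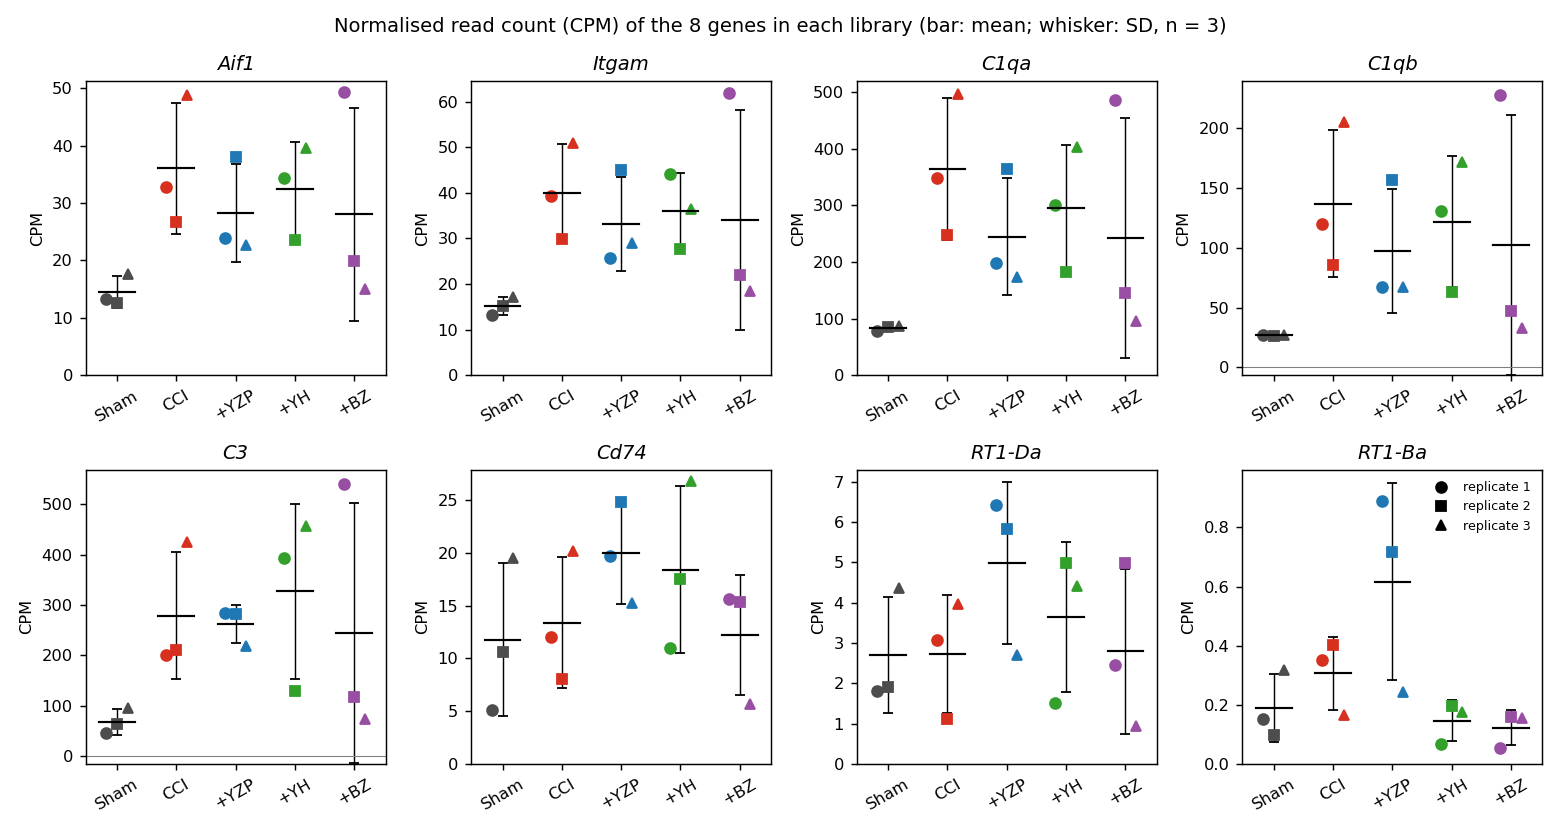
Normalised read count in CPM (vertical axis) of each gene in the 5 groups (horizontal axis). Points are libraries, with the marker giving the replicate number, bars are means and whiskers SD (n = 3). In the first 5 panels all CCI libraries lie above all sham libraries. There CCI+BZ holds replicate 1 near the top, replicate 2 between sham and CCI, and replicate 3 near sham.

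C1qa and C1qb encode chains of the C1q molecule and showed the widest gap with the least spread in sham. C1qa stood at 78.6, 84.9 and 86.3 CPM in sham and at 348, 248 and 496 CPM in CCI. C1qb stood at 27.1, 26.5 and 27.4 CPM in sham and at 119.9, 85.8 and 205 CPM in CCI. The sham libraries thus lay within 1.098-fold of each other for C1qa and within 1.03-fold for C1qb, while the CCI libraries spanned 2.002-fold and 2.39-fold. The ratio of group means was 4.37 for C1qa and 5.06 for C1qb, and the log2 fold change was 2.13 (SE 0.513, edgeR adjusted p = 0.111) and 2.34 (SE 0.646, adjusted p = 0.128).

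C3 differed by a similar ratio from a sham level that varied more. It stood at 45.7, 63.0 and 95.1 CPM in sham and at 201, 210.2 and 424 CPM in CCI. Its log2 fold change was 2.03 (95% interval 0.65 to 3.42, edgeR adjusted p = 0.156). Its sham libraries spanned 2.08-fold, and every CCI library lay above them.

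These 5 genes separated CCI from sham without overlap, as did 13.2% of all tested genes in the same direction, and they had an unadjusted edgeR p under 0.05, as did 9.56% of genes in that direction. None of the 7 tested genes was called by the edgeR fit over all 15 libraries, which called 0.0182% of genes in CCI against sham. The median log2 fold change was 1.40 over the 7 genes and -0.00154 over all tested genes. The calls depended on the method and on which libraries were fitted. A fit of the sham and CCI libraries alone called all 5 genes higher (adjusted p 0.00930 to 0.0324, where 1.82% of genes were called higher). The shared fit without CCI+BZ replicate 1 also called these 5 (adjusted p 0.0333 to 0.0457, with 0.806% of genes called higher). DESeq2 called Itgam, C1qa and C1qb higher (adjusted p 0.0464, 0.0197 and 0.0393, with 1.74% called higher), and for Aif1 and C3 its adjusted p was 0.0613 and 0.0769. Limma voom called none of them, with adjusted p from 0.111 to 0.157.

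The share of counts in the 3 most abundant genes moved with this difference, lower in every CCI library than in every sham library. With that share as a covariate the log2 fold change of C1qa was 0.78 in place of 2.13 (edgeR adjusted p = 0.566), and that of C1qb was 0.64 (adjusted p = 0.751). Those of Itgam, C3 and Aif1 were 0.50, 0.41 and 0.37 (adjusted p 0.789, 0.928 and 0.832). In CCI against sham the share and the injury cannot be told apart.

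**Figure D2:**
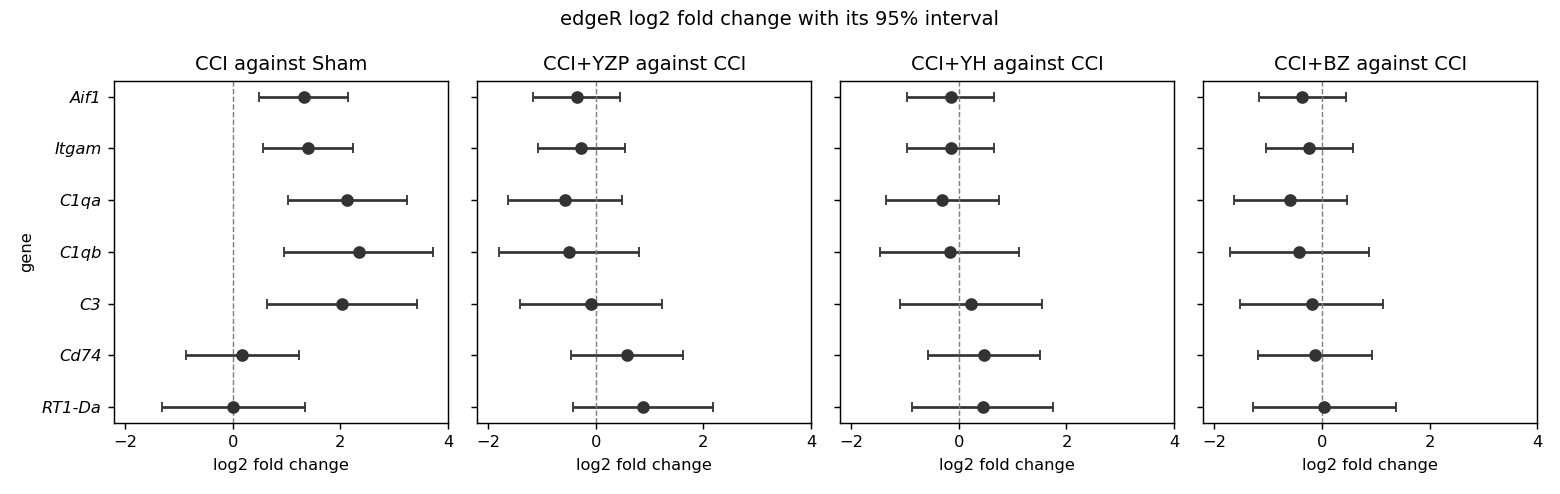
Log2 fold change (horizontal axis) of the 7 tested genes (vertical axis) in CCI against sham and in each treatment against CCI. Points are edgeR estimates and whiskers 95% intervals. In CCI against sham the intervals of the first 5 genes lie above 0, with C1qa at 2.13, and all intervals of the treatment comparisons include 0.

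MHC class II genes varied between libraries within every group. Cd74 stood at 5.15, 10.7 and 19.5 CPM in sham and at 12.0, 8.01 and 20.2 CPM in CCI, so that the groups overlapped. Its log2 fold change was 0.18 (95% interval -0.87 to 1.23, edgeR adjusted p = 0.875). RT1-Da, the alpha chain of a class II molecule of the DR type, stood at 1.82, 1.91 and 4.36 CPM in sham and at 3.06, 1.12 and 3.98 CPM in CCI. Its log2 fold change was 0.0084 (-1.32 to 1.33, adjusted p = 0.995). The interval allows a change of either sign of more than 2-fold. RT1-Da rested on 25 to 82 counts per library in these groups.

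RT1-Ba, the alpha chain of a class II molecule of the DQ type, was near the limit of detection. It had 3, 2 and 6 counts in sham, 8, 9 and 3 in CCI, 14, 13 and 5 in CCI+YZP, 1, 4 and 3 in CCI+YH, and 1, 3 and 3 in CCI+BZ. The exact 95% Poisson interval of the 14 counts was 7.65 to 23.5, and that of a single count was 0.0253 to 5.57. These intervals cover counting error only. In CPM all CCI+BZ libraries lay below all CCI libraries, a separation that 11.7% of tested genes showed in one direction or the other, but the nearest libraries of these groups held 3 counts each. All CCI+YZP libraries lay above those of CCI+YH and CCI+BZ, where 7.97% and 9.19% of genes separated. In the fit without a filter its edgeR adjusted p was between 0.408 and 1.00 over the 11 comparisons with a direction.

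The ratio of Cd74 to C1qa counts within a library needs no scaling between libraries. It was chosen after the levels of both genes had been seen and is given as a description. Per 100 C1qa counts there were 6.55, 12.55 and 22.6 Cd74 counts in sham and 3.45, 3.23 and 4.06 in CCI. The CCI libraries all lay below the sham libraries, with a difference in mean log2 ratio of -1.79 (CCI minus sham). An exact test over the 20 splits of these libraries gave p = 0.1, the smallest it can give, so it cannot decide this. In CCI+YZP the ratio was 9.97, 6.84 and 8.83, in CCI+YH 3.65, 9.64 and 6.64, and in CCI+BZ 3.22, 10.6 and 5.90.

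Promoter sequences are given for both RT1 genes, whose products are alpha chains of class II molecules, and for Itgam, as the myeloid surface gene. They were taken from RefSeq (GRCr8), which gave the region before the start for 7 of the 8 genes, Aif1 being the exception. Class II promoters are known for a Y box, an inverted CCAAT element bound by NF-Y, and promoters of myeloid genes for sites of PU.1. The letters TGATTGG were searched for the Y box and GAGGAAG for a PU.1 core, on both strands, in the 250 bases before the start, and matches are in capitals. The 2 motifs share no match in these windows. The last 150 bases before the start are shown for RT1-Da (plus strand, chr20:4515265-4515414) and RT1-Ba (plus strand, chr20:4576907-4577056), and all 250 for Itgam (plus strand, chr1:192089342-192089591).
RT1-Da: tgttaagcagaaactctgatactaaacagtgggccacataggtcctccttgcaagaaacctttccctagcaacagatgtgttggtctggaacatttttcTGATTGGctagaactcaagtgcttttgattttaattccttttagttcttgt
RT1-Ba: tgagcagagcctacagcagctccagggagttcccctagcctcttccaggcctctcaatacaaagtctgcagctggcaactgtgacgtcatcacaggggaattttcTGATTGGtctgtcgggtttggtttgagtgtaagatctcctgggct
Itgam: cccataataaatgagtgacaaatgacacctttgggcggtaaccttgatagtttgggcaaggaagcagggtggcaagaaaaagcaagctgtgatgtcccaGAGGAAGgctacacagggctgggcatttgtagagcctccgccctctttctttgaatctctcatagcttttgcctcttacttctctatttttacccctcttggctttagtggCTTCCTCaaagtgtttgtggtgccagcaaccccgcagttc

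TGATTGG began 51 bases before the start of RT1-Da and 45 bases before that of RT1-Ba, on the plus strand in both. It was found in 6.42% of 33469 rat promoter windows of the same length. GAGGAAG was found in the window of Itgam on both strands, at 151 and 40 bases before the start, and in 10.2% of all windows. The windows of C1qa, C1qb, C3 and Cd74 held neither string. In the same reference C1qa and C1qb lie side by side with only C1qc between them, and 2 further class II genes, RT1-Db1 and RT1-Db2, lie between RT1-Da and RT1-Ba.

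The treated groups were then set against CCI, to ask whether a preparation lowered or raised these genes. None of the 7 tested genes was called in CCI+YZP, CCI+YH or CCI+BZ against CCI, where edgeR called 0.00605%, 0% and 0% of all genes. None had an unadjusted p under 0.05, as 6.94%, 5.59% and 6.63% of genes did, and none separated the groups without overlap, as 14.5%, 10.9% and 11.7% did. The 3 comparisons share the CCI libraries.

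In CCI+YZP, C1qa stood at 198, 364 and 173 CPM, below the CCI mean of 364 CPM in 2 of 3 libraries and level with it in the third. The log2 fold change against CCI was -0.57 (95% interval -1.62 to 0.48, edgeR adjusted p = 0.847). C1qb stood at 67.1, 157 and 67.6 CPM (log2 fold change -0.49, -1.79 to 0.81). C3 stood at 284, 282 and 218 CPM, the narrowest span of C3 in any group at 1.30-fold (log2 fold change -0.090, -1.41 to 1.23). Aif1 stood at 23.9, 38.0 and 22.7 CPM and Itgam at 25.8, 45.01 and 28.9 CPM, with log2 fold changes of -0.35 and -0.27. In each of these 5 genes the CCI+YZP and CCI libraries overlapped.

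Cd74 and RT1-Da had their highest group means in CCI+YZP. Cd74 stood at 19.7, 24.9 and 15.3 CPM there (log2 fold change against CCI 0.58, 95% interval -0.46 to 1.62, edgeR adjusted p = 0.842). RT1-Da stood at 6.42, 5.83 and 2.69 CPM (0.87, -0.43 to 2.18, adjusted p = 0.801). Replicates 1 and 3 for Cd74 and replicate 3 for RT1-Da lay within the range of CCI, and neither difference passed the test.

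In CCI+YH, C1qa stood at 300.3, 182 and 403 CPM (log2 fold change against CCI -0.30, 95% interval -1.35 to 0.75, edgeR adjusted p = 0.963), and C1qb at 131, 63.4 and 171 CPM (-0.17, -1.46 to 1.13). C3 stood at 394, 129.5 and 457 CPM and had its highest group mean here, 327 CPM (0.23, -1.09 to 1.55). Replicate 2 was the lowest of the 3 for C1qa, C1qb, C3, Aif1 and Itgam. Aif1 stood at 34.4, 23.5 and 39.5 CPM and Itgam at 44.2, 27.6 and 36.6 CPM, with log2 fold changes of -0.15 for each. Cd74 stood at 10.97, 17.5 and 26.8 CPM and RT1-Da at 1.52, 4.99 and 4.42 CPM (log2 fold changes 0.47 and 0.44). For both class II genes it was replicate 1 that was lowest.

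CCI+BZ held the lowest ligated library for Aif1, Itgam, C1qa, C1qb and C3, and the highest for all of these but C1qa. C1qa stood at 485 CPM in replicate 1, close to the highest CCI library, and at 146 and 96.5 CPM in the other two, below every CCI library. C1qb stood at 228, 47.6 and 32.6 CPM, C3 at 541, 118 and 72.7 CPM, Aif1 at 49.3, 20.0 and 14.96 CPM and Itgam at 61.9, 22.0 and 18.4 CPM. The span within the group was 5.02-fold for C1qa, 6.98-fold for C1qb, 7.44-fold for C3, 3.29-fold for Aif1 and 3.36-fold for Itgam, the widest of any group for each gene. The share of counts in the 3 most abundant genes was 6.76% in replicate 1 and 8.43% and 9.18% in replicates 2 and 3, and its part in this split was not tested.

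Against CCI the log2 fold change in CCI+BZ was -0.59 for C1qa (95% interval -1.64 to 0.47, edgeR adjusted p = 0.84), -0.41 for C1qb (-1.71 to 0.88), -0.19 for C3 (-1.51 to 1.13), -0.36 for Aif1 and -0.23 for Itgam. Without replicate 1 of CCI+BZ it was -1.59 for C1qa (adjusted p = 0.248), -1.77 for C1qb and -1.54 for C3, and still none was called. Cd74 stood at 15.6, 15.4 and 5.69 CPM and RT1-Da at 2.46, 4.99 and 0.932 CPM in this group. Replicate 1, highest in the microglial and complement genes, was about level with replicate 2 for Cd74 and in the middle of its group for RT1-Da.

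**Figure D3:**
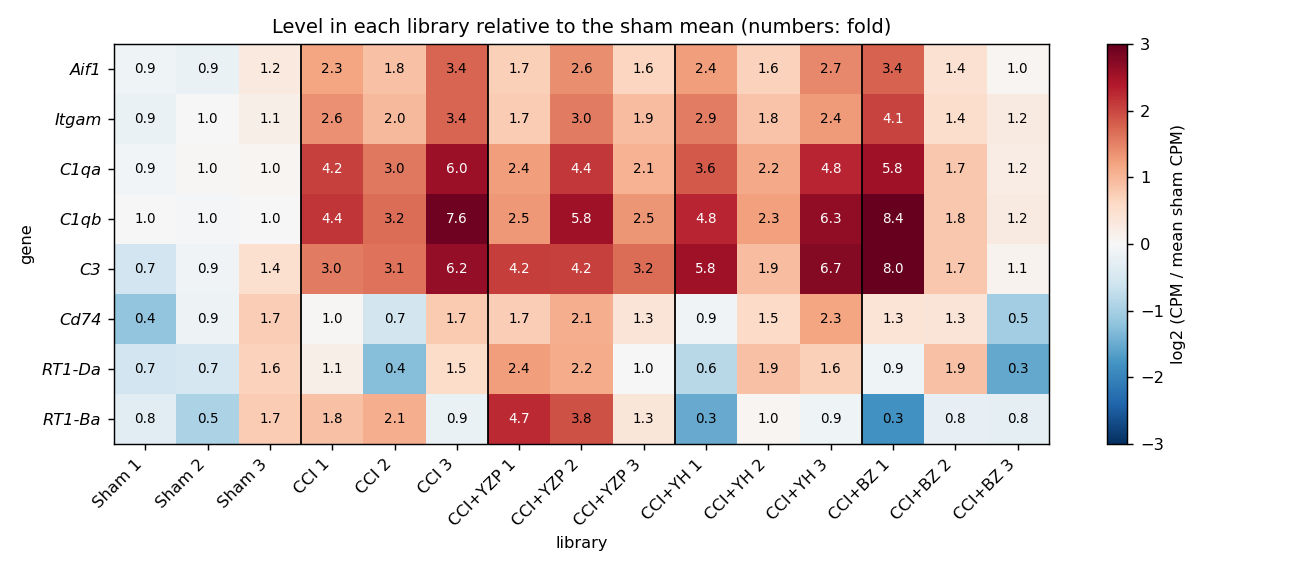
Level of the 8 genes (rows) in the 15 libraries (columns) as a fold of the mean sham CPM, printed in each cell and coloured on a log2 scale. The first 5 rows go up and down together from library to library, from 1.0 to 1.2 in CCI+BZ replicate 3 to between 3.4 and 8.4 in CCI+BZ replicate 1. The 3 class II rows differ from this order and from each other.

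Against sham, all 5 microglial and complement genes had positive log2 fold changes in every treated group. In CCI+YZP and in CCI+YH all 5 lay above sham in every library, where 8.98% and 9.50% of genes did so. In CCI+BZ this held for Itgam, C1qa and C1qb, where 5.34% of genes did so, and CCI+BZ replicate 3 fell within the sham range for Aif1 and C3. All 5 had an unadjusted edgeR p under 0.05 in each treated group, as did 5.83%, 7.20% and 4.20% of genes in that direction. None passed the adjustment, where 0.0666%, 0.0424% and 0% of genes were called. The C1qa log2 fold change against sham was 1.55 in CCI+YZP (edgeR adjusted p = 0.261), 1.82 in CCI+YH (adjusted p = 0.18) and 1.54 in CCI+BZ (adjusted p = 0.547). Without CCI+BZ replicate 1 the values in CCI+BZ against sham were 0.54 for C1qa (edgeR adjusted p = 0.978), 0.57 for C1qb and 0.49 for C3 in place of 1.54, 1.92 and 1.84. With the share of the top 3 genes as covariate the C1qa log2 fold change against sham was 0.61 for CCI+YZP, 1.08 for CCI+YH and 0.54 for CCI+BZ (edgeR adjusted p 0.404, 0.0935 and 0.659). C3 was called higher in CCI+YZP in the fit of these 2 groups alone (edgeR adjusted p = 0.0397, with 0.151% of genes called higher). When CCI+BZ replicate 1 was left out, Itgam, C1qa, C1qb and C3 were called higher in CCI+YH (edgeR adjusted p 0.0371 to 0.0434), with 0.460% of genes called higher.

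The mean of the 4 ligated groups was also compared with sham, a contrast added after the data had been seen. Itgam, C1qa and C1qb lay above every sham library in all 12 ligated libraries, as did 1.34% of tested genes. The log2 fold change was 1.23 for Itgam, 1.76 for C1qa, 2.07 for C1qb, 2.02 for C3 and 1.102 for Aif1 (edgeR adjusted p 0.11 to 0.142). No member was called in this contrast, where 0.188% of genes were called. All 5 had an unadjusted p under 0.05, as did 8.45% of genes in that direction. DESeq2 called all 5 higher (adjusted p 0.0107 to 0.0458, with 1.89% of genes called higher), and edgeR without CCI+BZ replicate 1 called Itgam and C1qa (adjusted p 0.0471 and 0.0465, with 0.251% called higher). Without CCI+BZ replicate 3 edgeR called C1qa (adjusted p = 0.0441, with 0.425% called higher). With the covariate the values were 0.58 for Itgam, 0.75 for C1qa, 0.78 for both C1qb and C3 and 0.41 for Aif1 (edgeR adjusted p 0.253 to 0.587). Cd74 and RT1-Da had log2 fold changes of 0.41 (95% interval -0.44 to 1.26) and 0.35 (-0.71 to 1.41).

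YZP and its components YH and BZ were given at different doses, so their values are set side by side. None of the 7 tested genes was called between CCI+YZP and CCI+YH, CCI+YZP and CCI+BZ, or CCI+YH and CCI+BZ, where edgeR called 0%, 0.0182% and 0.0424% of genes. None had an unadjusted p under 0.05 (3.56%, 5.10% and 5.44% of genes did), and none separated the groups (7.97%, 9.19% and 9.12% did). For C1qa the 95% interval of the log2 difference was -1.32 to 0.78 between CCI+YZP and CCI+YH, -1.04 to 1.07 between CCI+YZP and CCI+BZ, and -0.77 to 1.34 between CCI+YH and CCI+BZ. These intervals leave room for differences of more than 2-fold. Without CCI+BZ replicate 1 the C1qa log2 difference was 1.01 for CCI+YZP minus CCI+BZ, in place of 0.014 (edgeR adjusted p = 0.687). For CCI+YH minus CCI+BZ it was 1.28 in place of 0.28 (edgeR adjusted p = 0.393). A single test for any difference among the 5 groups gave C1qa an edgeR adjusted p of 0.389 (unadjusted p = 0.0152) and called no member, where 0.0908% of genes were called. The unadjusted p was under 0.05 for the 5 microglial and complement genes, as for 10.5% of all genes, and was 0.408 for Cd74 and 0.512 for RT1-Da.

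In order of group means, C1qa went from CCI at 364 ± 125 CPM through CCI+YH at 295 ± 111, CCI+YZP at 245 ± 104 and CCI+BZ at 242 ± 212 to sham at 83.3 ± 4.10 CPM (SD, n = 3 each). Aif1, Itgam and C1qb also had CCI first, CCI+YH second and sham last. For C3 the order was CCI+YH at 327 ± 174 CPM, CCI at 278 ± 126, CCI+YZP at 261 ± 37.7, CCI+BZ at 244 ± 258 and sham at 67.9 ± 25.1 CPM. Ligated groups next to each other in these orders differed by less than the SD within them. For Cd74 the order was CCI+YZP at 20.0 ± 4.80 CPM, CCI+YH at 18.4 ± 7.94, CCI at 13.4 ± 6.20, CCI+BZ at 12.2 ± 5.66 and sham at 11.8 ± 7.25 CPM. For RT1-Da it was CCI+YZP at 4.98 ± 2.004 CPM, CCI+YH at 3.64 ± 1.86, CCI+BZ at 2.79 ± 2.05, CCI at 2.72 ± 1.46 and sham at 2.69 ± 1.44 CPM, again with neighbours closer than their SD.

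The members varied between libraries more than most genes did. The biological coefficient of variation fitted within groups was 31.9% for both Aif1 and Itgam, 40.8% for C1qa, 50.2% for C1qb, 51.1% for C3, 41.1% for Cd74 and 51.0% for RT1-Da, and its median over all tested genes was 11.3%. The 7 genes lay between the 91.4th and 96.8th percentile of tested genes for this measure. It is 1 value per gene over all groups. The coefficient of variation of CPM was 1.68% for C1qb and 4.92% for C1qa in sham, and 106% and 87.3% in CCI+BZ. For Cd74 it was 61.6% in sham and 46.3% in CCI+BZ.

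This variation was shared among the microglial and complement genes. Over the 15 libraries Pearson's r of log2 CPM was 0.930 to 0.995 for the 10 pairs among Aif1, Itgam, C1qa, C1qb and C3, and Spearman's rho was 0.871 to 0.986 (permutation tests, adjusted over 28 pairs, p at most 8.4e-05 for r). C1qa and C1qb were the closest pair (r = 0.995, rho = 0.979, permutation adjusted p = 3.11e-05). Since these genes also differ between groups, the correlation was repeated on deviations from the group means, with permutation within groups. It was 0.872 to 0.994 for the same 10 pairs (adjusted permutation p 0.00364 to 0.0119). Without the 2 libraries farthest from the median of the first gene of a pair, r was 0.892 to 0.994. All libraries were scaled on the same genes, and the 3 most abundant genes' share also differed between them. The part of either in the shared movement was not tested.

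**Figure D4:**
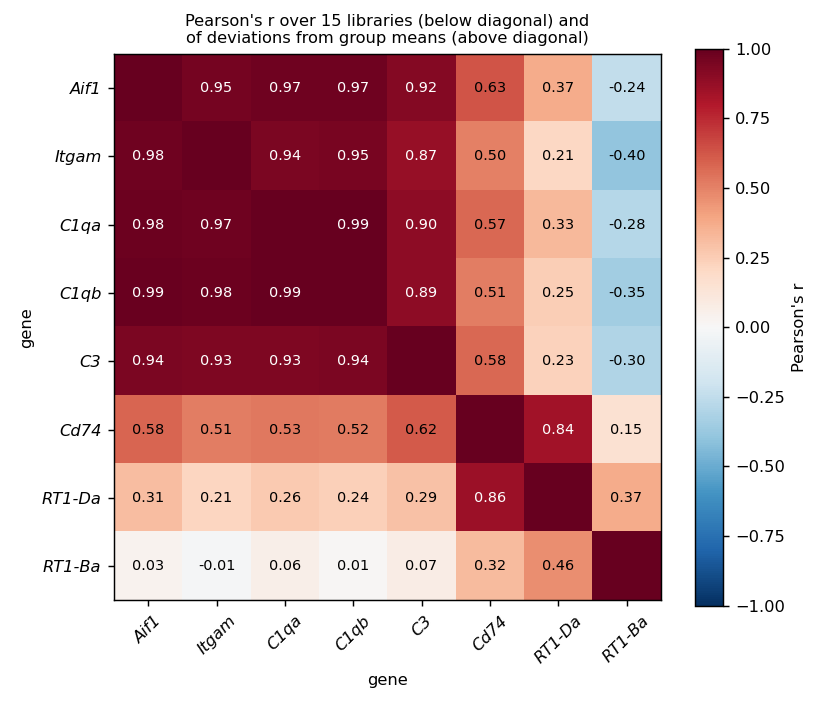
Pearson's r of log2 CPM between the 8 genes over the 15 libraries (below the diagonal) and of deviations from group means (above it), coloured from -1 to 1. The block of Aif1, Itgam, C1qa, C1qb and C3 holds values of at least 0.87, and of the class II pairs Cd74 with RT1-Da stands out at 0.86 and 0.84.

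Cd74 and RT1-Da moved together as a second pair. Their r was 0.856 and rho 0.829 (permutation adjusted p 0.000178 and 0.000815), and on deviations from group means r was 0.839 (adjusted permutation p = 0.0074). Without the 2 libraries farthest from the median of Cd74 the adjusted permutation p was 0.000509. RT1-Ba had an r of 0.464 with RT1-Da and of 0.317 with Cd74 (permutation adjusted p 0.135 and 0.387), at 1 to 14 counts per library. Without the 2 libraries farthest from the median of the first gene these became 0.713 (adjusted permutation p = 0.0126) and 0.269 (0.485), so that the relation of RT1-Ba with RT1-Da passed the threshold only in that setting among those run.

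Between the 2 blocks the relation was weaker. Over the 15 pairs of a class II gene with a microglial or complement gene, r was -0.014 to 0.617. Cd74 with C3 (r = 0.617, rho = 0.621, permutation adjusted p = 0.0319) and Cd74 with Aif1 (r = 0.583, rho = 0.593, adjusted p = 0.0488) passed the threshold. On deviations from group means none of the 15 pairs passed (r -0.396 to 0.626, adjusted permutation p at least 0.0894). There r was 0.577 for Cd74 with C3 and 0.626 for Cd74 with Aif1, near the values over all libraries. Neither of these 2 pairs passed without the 2 libraries farthest from the median (r 0.437 and 0.585, adjusted permutation p 0.256 and 0.081). RT1-Da with C1qa had an r of 0.264 (permutation adjusted p = 0.447).

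**Figure D5:**
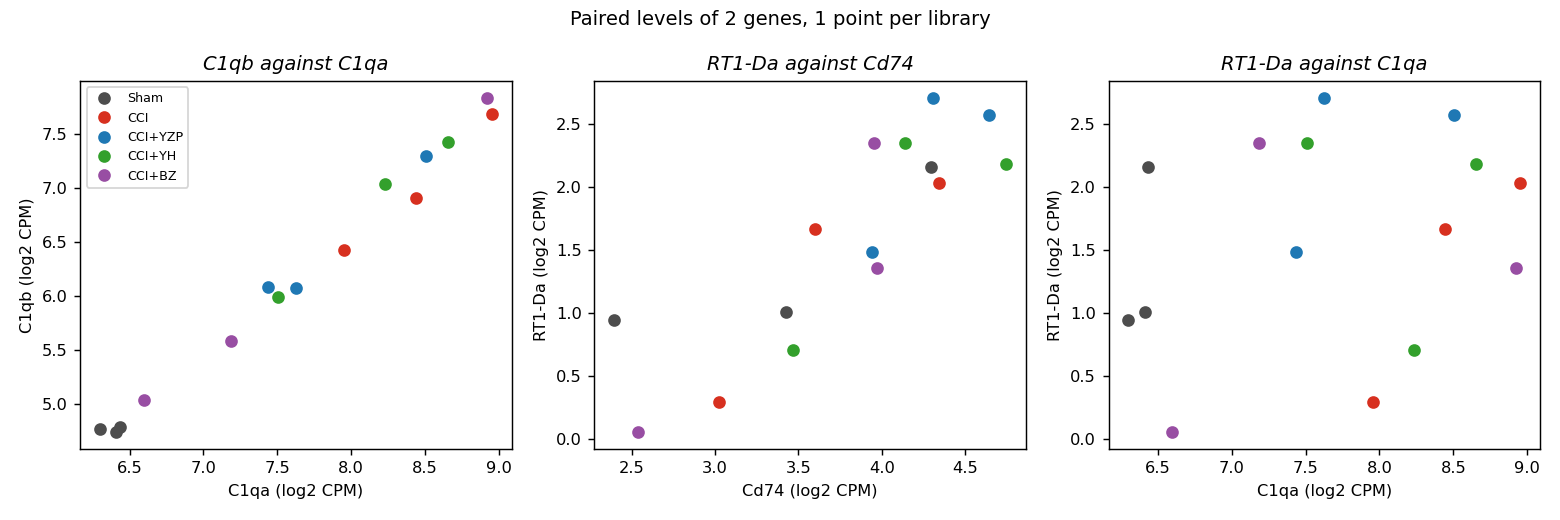
Log2 CPM of C1qb against C1qa, RT1-Da against Cd74 and RT1-Da against C1qa, with 1 point per library coloured by group. The 15 points follow a line in the first panel (r = 0.995), scatter around one in the second (r = 0.856) and show no clear line in the third (r = 0.264).

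The balance within the complement genes was less fixed than their common movement. Per 100 C1qa counts there were 31.3 to 34.5 C1qb counts in sham, 34.5 to 41.4 in CCI and 32.7 to 47.0 in the treated groups, with the highest value in CCI+BZ replicate 1. C3 ranged more widely, from 57.8 counts per 100 C1qa counts in CCI replicate 1 to 144 in CCI+YZP replicate 1. These ratios compare libraries, and transcript length bars reading them as relative amounts of the proteins' mRNAs.

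Other tested genes whose pattern was most like the mean standardised level of Aif1, Itgam, C1qa and C1qb are given by identifier, as a description. ENSRNOG00000024382 had an r of 0.994 over the 15 libraries, at 3.49 CPM on average in sham and 14.5 CPM in CCI. ENSRNOG00000012749 had an r of 0.993, at 35.8 and 140 CPM. For the mean of the 3 class II genes the closest other gene reached an r of 0.836, with levels between 115 and 136 CPM over all libraries. The class II mean includes RT1-Ba at 1 to 14 counts per library, so these values of r are not compared between the 2 patterns.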

How the data were processed

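The authors deposited raw counts per gene, 1 table per library, with 32883 Ensembl rows and 1319 rows without an Ensembl identifier; no row held a total. Per the submitters' processing notes the build was rn4 and DESeq2 1.16.1 was used. The sources used here do not give the aligner, counting program, annotation or strand setting. Reads of overlapping genes or near-identical RT1 copies may therefore be shared. The symbols come with the choice of identifiers, and the reference table (GRCr8) gave Ensembl identifiers for 0 of 47357 genes, so other pathway lists and cell type markers could not be tested.

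The genes and lists were chosen with earlier results of these data known. Named genes are the 8 members in all comparisons plus the closest genes by r. With edgeR 4.0.16 (R 4.3.3), genes were kept by filterByExpr (minimum count 10), scaled by TMM and tested by quasi-likelihood with 1 coefficient per group over all 15 libraries (10 residual degrees of freedom), adjusted by Benjamini-Hochberg over 16522 genes. Intervals derive from the F statistic. Correlations used log2 CPM (prior count 2) and 100000 permutations, two-sided, so that the smallest p they can give is 1e-05. Alternatives were DESeq2 1.42.0, limma 3.58.1 (voom), RLE scaling, no filter, a mean count of at least 50, a block for the replicate number, fits of only the groups compared, and omission of each library in turn. The covariate, the contrast of all ligated groups and the Cd74 to C1qa ratio were added after seeing the data. The fit was tested on simulated data. The labels do not say that libraries are separate rats, so p-values measure the spread between these libraries. Those of the same group differed by more than sampling noise.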

Additional observations from a re-analysis of the deposited data

How the results depend on the processing

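The edgeR fit over all libraries called 0 of the 7 tested genes in each of the 10 comparisons of 2 groups, in the test over 5 groups and in all ligated groups against sham. The number called became 3 in CCI against sham and 5 in all ligated groups against sham with DESeq2, and 5 in CCI against sham and 1 in CCI+YZP against sham with only the groups compared. Leaving out each library gave 0 to 5 in CCI against sham, 0 to 4 in CCI+YH against sham and 0 to 2 in all ligated groups against sham. In CCI against sham and in CCI+YH against sham, only the omission of CCI+BZ replicate 1 gave any call. All genes called were higher than in sham. Same-numbered libraries of different groups did not deviate together (median r -0.00817 over 30 pairs, and 4 of 15 libraries correlated best with one of their own number), and the replicate block left every count at 0. Of the 28 pairs, 13 correlations passed, and 13, 11 and 12 under the 3 alternatives.

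Changes of sign are listed for CCI against sham and for each treatment against CCI. Other comparisons held more, such as Cd74 in CCI+BZ against sham (0.056, and -0.275 with the covariate). Of the log2 fold changes in the listed comparisons that were not called, some changed sign. Adjusted for the top-3-gene share of counts, they became -0.361 (Cd74) and -0.0735 (RT1-Da) in CCI against sham, 0.0190 (Itgam), 0.0208 (C1qb) and 0.514 (C3) in CCI+YZP against CCI, 0.291 (Aif1), 0.294 (Itgam), 0.305 (C1qa) and 0.592 (C1qb) in CCI+YH against CCI, and 0.0382 (Itgam), 0.112 (C3) and 0.0858 (Cd74) in CCI+BZ against CCI. RT1-Da became -0.0739 in CCI against sham and -0.0491 in CCI+BZ against CCI with limma voom, and -0.00541 in the latter with the replicate block. The cause was not tested. Leaving out each library gave, in CCI against sham, -0.232 to 0.752 for Cd74 and -0.359 to 0.536 for RT1-Da. In CCI+YZP against CCI it gave -0.278 to 0.345 for C3. In CCI+YH against CCI it gave -0.329 to 0.125 for Aif1, -0.324 to 0.0588 for Itgam, -0.498 to 0.243 for C1qb and -0.092 to 0.667 for C3. In CCI+BZ against CCI it gave -0.9845 to 0.0693 for Itgam, -1.77 to 0.00925 for C1qb, -1.54 to 0.245 for C3, -0.391 to 0.289 for Cd74 and -0.674 to 0.462 for RT1-Da. With 3 libraries per group, the interval of RT1-Da in CCI against sham (-1.32 to 1.33 on the log2 scale) and the 1 to 14 counts per library of RT1-Ba limit what could be seen of class II genes.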
